A study of Homo sapiens with 6 samples.

Results

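The transcripts described here were the long noncoding RNAs of H2087-LCC cells whose names place them in the genome: long intergenic noncoding RNAs, named LINC and a number, and antisense transcripts, named after the gene on the opposite strand with the ending -AS and a number. A name was kept when its mean over the 6 libraries was at least 10 normalized counts. The rule gave 429 members, 146 LINC and 283 antisense transcripts, out of 1047 such names and 21293 genes in the table. Because the mean chose them, their levels are given as a description. Of the 618 names under the threshold, 114 were at 0 in all 6 libraries, and 36 reached a mean of 10 in 1 group. The nearest names outside were MRPL23-AS1 at 9.5 and LINC00922 and NDUFA6-AS1 at 9.67, and the nearest inside were EIF1B-AS1 and LINC01144 at 10.2 and LRP4-AS1 at 10.3. Among the members, 56 had a mean under 10 in at least 1 group, so these entered through the groups in which they were higher.

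H2087-LCC is a human lung adenocarcinoma line, selected from H2087 for cells that persist as dormant metastases. One group of cultures received SB505124 for 3 days, which blocks the kinase of the type I receptor for TGFβ, and the other groups received TGFβ for 3 days or for 7 days. Each group had 2 libraries of polyadenylated RNA, which the study describes as technical replicates, so the p-values measure only the spread between these libraries. No library of SB505124-treated cells at 7 days was analysed here, and in the comparison of TGFβ at 7 days with SB505124 the treatment and the time in culture cannot be told apart.

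The deposited values summed to between 34306283 and 36340734 per library, and the members held 0.339 to 0.357% of each total. The 10 lung epithelial markers summed to between 106405 and 125111 with SB505124, 99082 and 111379 at 3 days, and 89488 and 102406 at 7 days, mostly from keratins. CDH1 went from 371 and 635 with SB505124 to 10 and 9 at 7 days, and NAPSA from 99 and 234 to 9 and 5. EPCAM, KRT18, NKX2-1, SFTPB and MUC1 were also lower in both 7-day libraries than in both SB505124 libraries. KRT7 went the other way, from 5860 and 6183 with SB505124 to 13979 and 11230 at 7 days. The 7-day values of KRT8 and KRT19 overlapped those with SB505124. The SB505124 libraries differed in SFTPB, at 1104 and 8273, and in MUC1, at 448 and 1289. The 5 leukocyte markers summed to between 307 and 414 with SB505124, 1613 and 1731 at 3 days, and 2120 and 2176 at 7 days, nearly all of it LAPTM5, while PTPRC, CD3E and CD14 had means under 10. The 3 fibroblast markers summed to between 8 and 16 in every library, with DCN and LUM at or near 0, and the 3 endothelial markers to between 56 and 78. The part of these markers in the results was not tested. In RNA of whole cultures, a transcript made in fewer cells and one made at a lower level per cell cannot be told apart.

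Long noncoding RNAs are transcribed and usually spliced and polyadenylated like messenger RNAs, but most carry no conserved reading frame, and many are made at low level and in few cell types. Antisense transcripts can start inside the gene they face, or head to head with it from a shared promoter region that fires in both directions. Some act where they are made, on the neighboring gene, and others act elsewhere in the cell, as NORAD does by binding Pumilio proteins.

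On GRCh37, the build of the submitters' processing notes, 409 members were found in the GENCODE annotation, 93 of them under a newer symbol. Of the 276 antisense transcripts found, 227 overlapped a protein-coding gene on the opposite strand, 197 shared exon bases with a protein-coding gene, and 70 (25.4%) started head to head with one, within 1000 bases. Of the 133 LINC transcripts found, 101 were intergenic and 7 (5.26%) lay head to head with a protein-coding gene. By this annotation 16 members are protein-coding. They include LINC00998, which encodes the small membrane protein SMIM30, and LINC00116, which encodes the mitochondrial microprotein mitoregulin.

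The promoter windows of 8 members are shown because they belong to the transcripts on which the results turn. These were the 3 largest rises and 3 largest falls at 7 days among named members averaging 30 or more with a window on the annotated strand. The others were a pair of head-to-head antisense transcripts that moved away from their sense genes. Each window runs from 250 bases before to 50 bases after the start in RefSeq (GRCh38.p14), is read 5′ to 3′ on the strand of the transcript, and has each CG dinucleotide in capitals.
LINC00313, chr21:43478174-43478473, minus strand: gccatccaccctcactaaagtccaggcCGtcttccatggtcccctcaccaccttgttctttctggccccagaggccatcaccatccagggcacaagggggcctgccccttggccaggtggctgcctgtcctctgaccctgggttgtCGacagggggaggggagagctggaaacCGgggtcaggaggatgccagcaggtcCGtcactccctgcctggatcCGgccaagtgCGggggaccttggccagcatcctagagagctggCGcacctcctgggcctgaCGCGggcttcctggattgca
LINC00862, chr1:200373743-200374042, minus strand: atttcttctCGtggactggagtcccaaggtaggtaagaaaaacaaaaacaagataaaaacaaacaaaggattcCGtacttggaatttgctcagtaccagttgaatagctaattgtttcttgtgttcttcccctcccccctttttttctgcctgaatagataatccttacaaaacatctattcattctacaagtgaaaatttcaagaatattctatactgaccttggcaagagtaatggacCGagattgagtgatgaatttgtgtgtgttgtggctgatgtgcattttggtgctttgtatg
STXBP5-AS1, chr6:147204565-147204864, minus strand: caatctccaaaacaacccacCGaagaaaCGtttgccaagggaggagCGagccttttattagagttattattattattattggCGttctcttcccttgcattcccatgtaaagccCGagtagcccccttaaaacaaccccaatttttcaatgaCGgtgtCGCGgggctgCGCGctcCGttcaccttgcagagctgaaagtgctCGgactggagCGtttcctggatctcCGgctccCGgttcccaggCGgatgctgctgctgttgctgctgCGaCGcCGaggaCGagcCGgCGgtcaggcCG
ATP6V0E2-AS1, chr7:149873813-149874112, minus strand: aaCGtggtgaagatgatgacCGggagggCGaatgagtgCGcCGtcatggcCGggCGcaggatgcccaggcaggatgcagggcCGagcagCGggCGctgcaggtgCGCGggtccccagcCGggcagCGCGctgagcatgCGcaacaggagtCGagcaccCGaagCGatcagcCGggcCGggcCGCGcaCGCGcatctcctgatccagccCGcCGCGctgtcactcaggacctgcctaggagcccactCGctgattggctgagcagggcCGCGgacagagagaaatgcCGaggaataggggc
LINC00261, chr20:22578593-22578892, minus strand: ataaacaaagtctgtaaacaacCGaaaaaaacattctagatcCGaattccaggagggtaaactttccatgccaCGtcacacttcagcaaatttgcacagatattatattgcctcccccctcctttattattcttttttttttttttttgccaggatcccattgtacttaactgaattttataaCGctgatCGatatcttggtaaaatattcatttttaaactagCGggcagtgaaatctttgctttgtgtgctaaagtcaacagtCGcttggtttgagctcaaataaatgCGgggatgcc
FAM222A-AS1, chr12:109773438-109773737, minus strand: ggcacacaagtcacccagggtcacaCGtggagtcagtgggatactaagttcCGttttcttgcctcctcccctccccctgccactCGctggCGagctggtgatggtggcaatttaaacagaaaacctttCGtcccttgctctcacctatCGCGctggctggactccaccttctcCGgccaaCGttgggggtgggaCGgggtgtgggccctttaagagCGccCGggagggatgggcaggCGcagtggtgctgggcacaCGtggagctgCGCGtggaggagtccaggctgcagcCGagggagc
BAIAP2-AS1, chr17:81034670-81034969, minus strand: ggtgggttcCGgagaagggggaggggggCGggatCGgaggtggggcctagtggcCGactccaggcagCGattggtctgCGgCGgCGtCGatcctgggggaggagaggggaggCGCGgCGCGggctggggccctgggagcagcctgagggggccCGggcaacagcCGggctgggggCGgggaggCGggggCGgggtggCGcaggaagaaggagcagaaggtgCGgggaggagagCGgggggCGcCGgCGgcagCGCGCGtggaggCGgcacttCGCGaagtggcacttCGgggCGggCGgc
BOLA3-AS1, chr2:74147731-74148030, plus strand: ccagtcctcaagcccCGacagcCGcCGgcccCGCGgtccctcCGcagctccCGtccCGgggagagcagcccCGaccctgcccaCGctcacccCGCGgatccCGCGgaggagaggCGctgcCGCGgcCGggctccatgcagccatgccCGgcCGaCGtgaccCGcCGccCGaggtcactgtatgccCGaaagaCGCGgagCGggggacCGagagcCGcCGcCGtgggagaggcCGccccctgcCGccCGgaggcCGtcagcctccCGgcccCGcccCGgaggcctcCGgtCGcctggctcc

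The windows differed in CG content. LINC00862 held 3 CG dinucleotides, LINC00261 held 8 and LINC00313 held 9, whereas ATP6V0E2-AS1 held 32, BAIAP2-AS1 33 and BOLA3-AS1 41. RefSeq windows were found for 322 of the 429 members. The median ratio of observed to expected CG was 0.80 in the windows of 213 antisense transcripts, 0.57 in those of 109 LINC transcripts and 0.58 in all 27305 windows of the table. The letters CAGAC, the core of the SMAD-binding element, stood on either strand in 45.1% of the windows of members that rose at 7 days, in 43.9% of those that fell and in 45.0% of all windows. CACCTG, an E-box bound by ZEB and SNAIL factors, stood in 22.5% of risen, 22.8% of fallen and 20.6% of all windows. TGANTCA, the AP-1 motif, stood in 11.3% of risen, 12.3% of fallen and 7.8% of all windows. In LINC and antisense windows the shares were 16.5 and 4.7% for TGANTCA, 22.9 and 15.0% for CACCTG and 42.2 and 40.8% for CAGAC. The median GC content of these windows was 58.3 and 66.0%. These matches are letters in a window and not measured binding sites.

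Members were expressed at low level. The median of their mean values was 55.8 normalized counts, beside 774 for all 14395 genes with a mean of at least 10. Per kb of annotated exon the median was 14.3 for the members found in the annotation and 169 for protein-coding genes. By mean, 199 members lay between 10 and 50 normalized counts, 191 between 50 and 500, and 39 at 500 or more.

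A few transcripts held most of the signal. The 10 highest members made up 50.5% of the members' sum. LINC00657, known as NORAD, alone made up 18.6%. Its values were 18943 and 18804 with SB505124, 24383 and 22629 at 3 days of TGFβ, and 25588 and 27412 at 7 days. The groups did not overlap, and its log2 change against SB505124 was 0.32 ± 0.08 after 3 days and 0.49 ± 0.08 after 7 days (fitted difference ± SE, limma adjusted p = 0.011 and 0.00029).

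LRRC75A-AS1, the host transcript of small nucleolar RNAs also called SNHG29, went the other way. It had 14310 and 13635 normalized counts with SB505124, 11308 and 11434 at 3 days and 9633 and 9448 at 7 days, a log2 change of -0.30 and then -0.55 against SB505124 (adjusted p = 0.012 and 8.6e-05). THAP9-AS1 fell from 6015 and 5710 to 4595 and 4394 at 3 days and to 3012 and 3310 at 7 days (log2 change -0.38 and -0.89, adjusted p = 0.006 and 5.3e-06). FGD5-AS1 had 2564 and 2670 with SB505124 and 3782 and 4221 at 7 days, a log2 change of 0.61 (adjusted p = 0.00015), and its change of 0.25 at 3 days did not pass the test (adjusted p = 0.056).

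After 3 days of TGFβ, 80 members differed from SB505124 at an adjusted p under 0.05 in limma, fitted on log2(value + 1) over all genes tested. They were 18.6% of the members, against 29.0% of all genes tested. Of them 45 were higher and 35 lower, that is 10.5% and 8.16% of the members, beside 14.9% and 14.0% of all genes. The split between higher and lower calls moved with library scaling: with equal library totals 38 members were higher and 45 lower. Of the 80, 28 were LINC and 52 antisense transcripts, and 12 came from those under a mean of 10 in at least 1 group. Without the filter on low values 53 were called, and without the first 3-day library 47.

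After 7 days, 173 members differed from SB505124, 99 higher and 74 lower. This was 40.3% of the members, against 54.5% of all genes tested. In each direction it was 23.1% and 17.2%, beside 27.7% and 26.9%. Of the 173, 31 were under a mean of 10 in at least 1 group, 23 of them higher and 8 lower. Between 7 and 3 days of TGFβ, 86 members differed, 45 higher and 41 lower, or 20.0% against 33.2% of all genes tested, with 17.0% of all genes higher and 16.2% lower, and 16 of the 86 were under a mean of 10 in at least 1 group. Without 1 of the 7-day libraries 114 or 112 members were called at 7 days, and without 1 of the 4 TGFβ libraries 29 to 50 were called between the times.

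The share called was higher at higher levels, among members as among all genes. Among members with a mean of 10 to 50, 33.2% were called at 7 days against SB505124, beside 36.0% of all genes at that level. From 50 to 500 it was 45.5% beside 50.7%, and at 500 or more 51.3% beside 60.9%. At 3 days the highest band stood at 33.3% of 39 members beside 31.5%. Changes over 2-fold were called in 48 members at 3 days (11.2%, beside 8.80% of all genes), 86 at 7 days (20.0% beside 16.7%) and 38 between the times (8.86% beside 6.53%). Within the band of 10 to 50, however, the 2-fold share of members at 7 days was 25.1%, beside 31.7% of all genes.

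**Figure D1:**
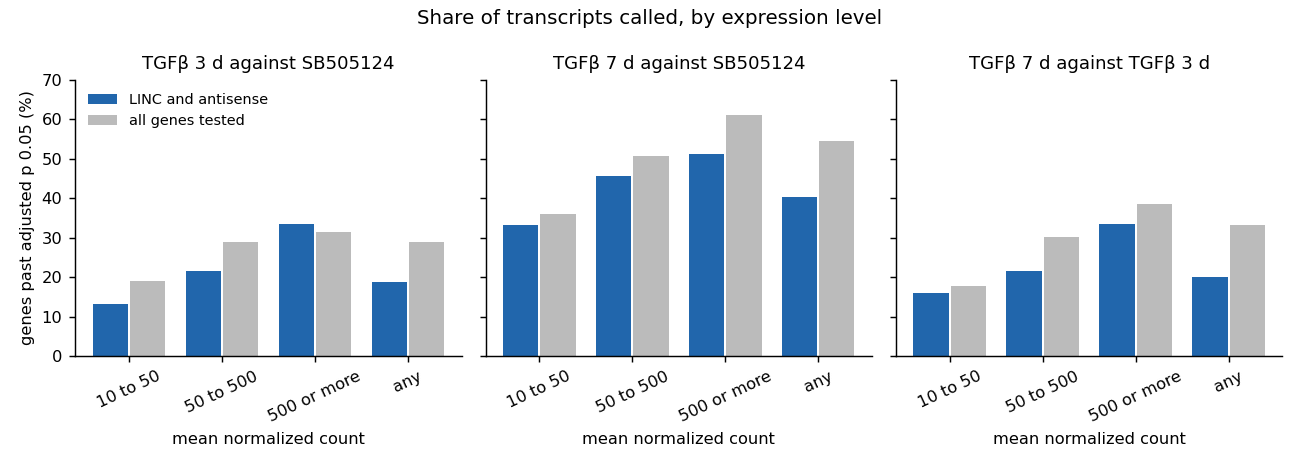
Percentage of transcripts past an adjusted p of 0.05 in each comparison (y axis) by mean normalized count (x axis), for LINC and antisense members (blue) and all genes tested (grey); the last pair of bars in each panel is over all levels. At 7 days against SB505124, 33.2, 45.5 and 51.3% of members were called in the 3 bands, beside 36.0, 50.7 and 60.9% of all genes.

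In time, 66 members were called against SB505124 at both time points, 38 higher at both and 28 lower at both. A further 107 were called at 7 days and not at 3, 61 higher and 46 lower, and 49 of these also differed between 7 and 3 days. Another 14 were called at 3 days alone, and 225 were called in none of the 3 comparisons. In all, 204 members (47.6%) were called at least once, against 61.8% of all genes tested.

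**Figure D2:**
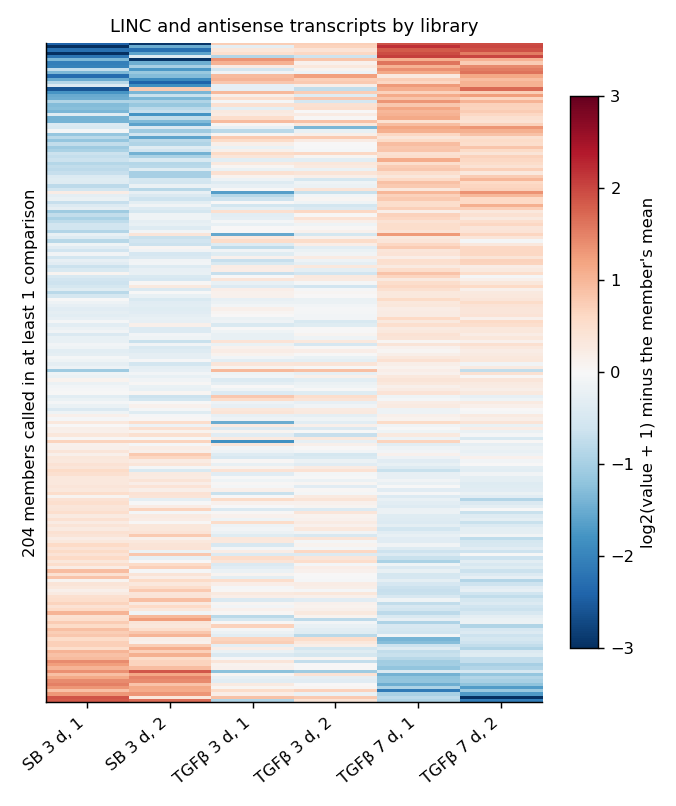
Each line is 1 of the 204 members called in at least 1 comparison and each column 1 library; color gives log2(value + 1) minus the mean of that member, red higher and blue lower, with lines in order of the fitted change at 7 days against SB505124. The 66 members called at both times moved in the same direction at 3 and 7 days, 38 higher and 28 lower.

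The largest rise was that of APCDD1L-AS1. This transcript starts within 20 bases of APCDD1L, whose product resembles the WNT inhibitor APCDD1, and lies at chr20:57090435-57194944 on the plus strand of GRCh37. It had 29 and 20 normalized counts with SB505124, 263 and 260 after 3 days of TGFβ, and 592 and 613 after 7 days. No group overlapped another. The log2 change against SB505124 was 3.39 ± 0.19 after 3 days and 4.59 ± 0.19 after 7 days, and 7-day libraries were 1.20 above 3-day ones (adjusted p = 1.4e-07, 5.1e-09 and 0.00097). APCDD1L itself had 9 and 10 normalized counts, then 108 and 116, then 485 and 484.

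The next 3 rises were of intergenic transcripts that were at 10 normalized counts or fewer in both SB505124 libraries. They reached the mean of 10 only through the TGFβ groups, so the rule itself favored this direction for them. LINC00313 and LINC00319 lie 8057 bases apart on chromosome 21, at chr21:44881840-44899414 on the minus strand and chr21:44866481-44873782 on the plus strand. LINC00313 had 5 and 5 normalized counts with SB505124, 35 and 37 at 3 days, and 101 and 106 at 7 days (log2 change 2.62 and 4.12, SE 0.285, adjusted p = 3e-05 and 2.9e-07). LINC00319 had 1 and 5, then 13 and 26, then 76 and 67 (log2 change 2.49 and 4.38, SE 0.515, adjusted p = 0.0035 and 2.5e-05), with a 95% interval of 3.26 to 5.51 at 7 days. Both rose again between 3 and 7 days, by 1.50 and 1.90 on the log2 scale. The second of these, that of LINC00319, passed the test in 10 of 15 alternative settings, with a largest adjusted p of 0.11. Their nearest protein-coding gene, SIK1, encodes a salt-inducible kinase and has its start 52403 bases from that of LINC00313 and 19470 from that of LINC00319. It had 1586 and 1248 normalized counts with SB505124, 8241 and 8118 at 3 days and 10989 and 9636 at 7 days.

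LINC00942 on chromosome 12 had 3 and 10 normalized counts with SB505124, 46 and 50 at 3 days, and 128 and 94 at 7 days. Its log2 change was 2.88 at 3 days and 4.06 at 7 days (SE 0.417, adjusted p = 0.00028 and 8.5e-06). The nearest protein-coding gene, with its start 22573 bases away, was WNT5B, a ligand of noncanonical WNT signaling. It was listed at 0 in both SB505124 libraries, at 23 and 22 at 3 days, and at 145 and 128 at 7 days. LINC01239, at chr9:22646199-22824212, had 18 and 21, then 44 and 43, then 106 and 149 (log2 change 1.12 and 2.63, adjusted p = 0.0071 and 6.3e-06). Its nearest protein-coding gene, DMRTA1, with its start 199376 bases away, had 49 and 42, then 46 and 44, then 53 and 50, and passed no test.

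For other risers the values at 3 and 7 days did not differ past the threshold. LINC00862, which reached the mean of 10 only through the TGFβ groups, had 8 and 2 normalized counts with SB505124, 57 and 40 at 3 days and 47 and 46 at 7 days. Its change was 3.23 and 3.19 on the log2 scale (SE 0.462), with a difference between the TGFβ times of -0.04. The nearest protein-coding gene, ZNF281, encodes a zinc finger factor studied in epithelial-to-mesenchymal transition (EMT), and it rose from 2837 and 2733 to 5845 and 5205 and then to 6284 and 6325 (log2 change 0.99 and 1.18).

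STXBP5-AS1 had 43 and 32 normalized counts with SB505124, 248 and 201 at 3 days and 204 and 232 at 7 days. STARD4-AS1, opposite the sterol carrier gene STARD4, had 152 and 200, then 1015 and 860, then 839 and 863. PAX8-AS1 had 49 and 16, then 156 and 153, then 138 and 183. The log2 changes were 2.56, 2.42 and 2.42 after 3 days and 2.52, 2.28 and 2.46 after 7 days (largest adjusted p = 0.00058, for PAX8-AS1 at 3 days), with TGFβ libraries above SB505124 libraries in each case. Between 3 and 7 days they differed by -0.04, -0.13 and 0.04, and none of these passed the test (smallest adjusted p = 0.52).

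LINC00704, LINC00705 and LINC01137 were picked out after their values were seen. LINC00704, also called MANCR, had 469 and 275 normalized counts with SB505124, 1432 and 1423 at 3 days, and 1063 and 1156 at 7 days (log2 change 1.99 and 1.62). LINC00705 overlaps it on the other strand and had 19 and 20, then 101 and 95, then 71 and 70 (2.27 and 1.80). Because the libraries keep no strand, reads over their shared bases cannot be told apart. The nearest protein-coding gene of both, AKR1E2, had 69 and 65, then 81 and 73, then 91 and 78, and passed no test. LINC01137 had 56 and 60, then 225 and 271, then 276 and 244 (2.07 and 2.14).

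**Figure D3:**
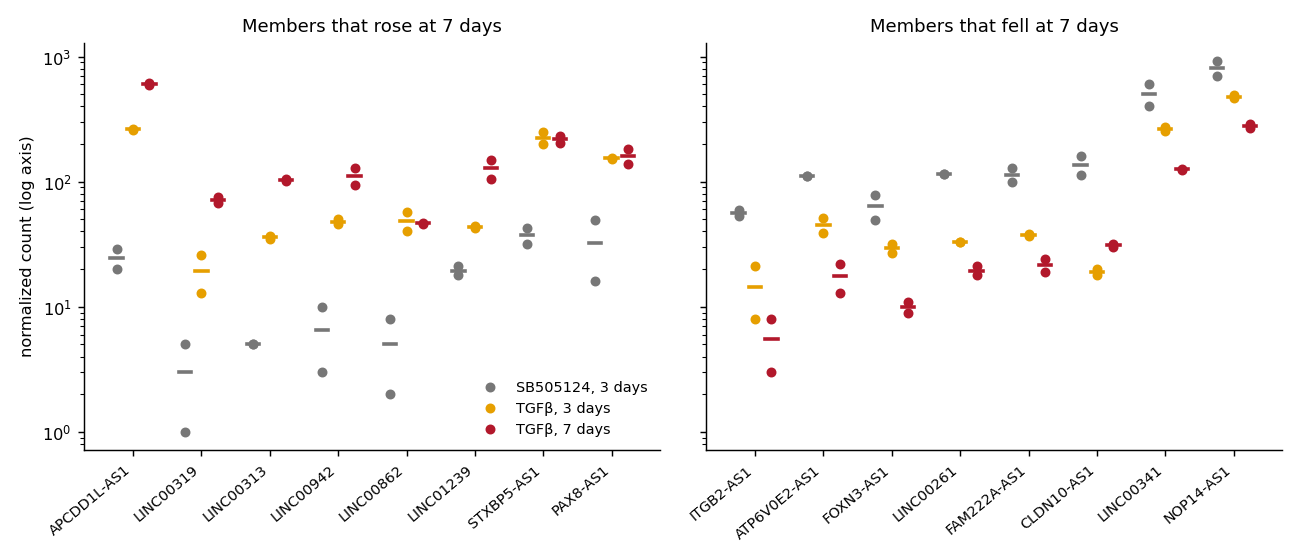
Normalized counts on a log axis for 8 members that rose (left) and 8 that fell (right) at 7 days against SB505124; each point is 1 library, the bar is the mean of the 2 libraries, and color gives the group. APCDD1L-AS1 goes from 29 and 20 to 592 and 613, and LINC00261 from 115 and 115 to 18 and 21.

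Several of the falling members had a neighboring or opposite gene that fell as well. LINC00261, which lies at chr20:22528301-22559280 with its start 6813 bases from that of FOXA2, a transcription factor of foregut and lung epithelium, had 115 and 115 normalized counts with SB505124, 33 and 33 at 3 days, and 18 and 21 at 7 days. Its log2 change was -1.77 ± 0.25 and -2.50 ± 0.25 (adjusted p = 0.00024 and 6.7e-06). FOXA2 had 490 and 642 with SB505124, 75 and 99 at 3 days and 68 and 75 at 7 days, a log2 change of -2.69 and -2.96.

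CLDN10-AS1 lies inside CLDN10, a tight junction claudin, at chr13:96131698-96186164 on the opposite strand, and shares no exon bases with it. Without strand, any reads of unspliced CLDN10 RNA over it cannot be told apart. CLDN10-AS1 had 114 and 160 normalized counts with SB505124, 18 and 20 at 3 days and 32 and 30 at 7 days (log2 change -2.77 and -2.09, SE 0.266, adjusted p = 1.1e-05 and 4.6e-05). CLDN10 fell from 1314 and 1516 to 358 and 341 and then stood at 370 and 415. The rise of CLDN10-AS1 from 3 to 7 days, 0.68, did not pass the test (adjusted p = 0.07).

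NKX2-1-AS1 faces NKX2-1, the lung lineage transcription factor, at chr14:36988483-36992221. It had 69 and 81 normalized counts with SB505124, 31 and 22 at 3 days and 37 and 25 at 7 days (log2 change -1.48 and -1.27, adjusted p = 0.0029 and 0.0035). It shares 22.6% of its exon bases with NKX2-1, over which strands cannot be told apart. NKX2-1 had 2784 and 2908, then 712 and 748, then 853 and 857. SOX21-AS1, at chr13:95355708-95455684, had 679 and 703, then 355 and 312, then 271 and 302 (log2 change -1.05 and -1.27, SE 0.134), and SOX21, a SOX family factor of foregut and airway epithelium, had a log2 change of -2.08 and -2.45. The other members of the fixed list of antisense transcripts to developmental transcription factors were mixed: DLX6-AS1 rose from 15 and 25 with SB505124 to 57 and 58 at 7 days (log2 change 1.52), HOXB-AS3 rose by 0.70 at 7 days, HOXC-AS2 rose by 1.25 at 3 days, and SOX9-AS1, SIX3-AS1 and HOXC-AS1 passed no test. The call of HOXB-AS3 held in 10 of 16 alternative settings. Of the 8 listed transcripts tested, 1 was higher and 2 lower at 3 days, and 2 were higher and 2 lower at 7 days, beside 29.0 and 54.5% of all genes called. The median log2 change at 7 days was 0.48, beside -0.00 over all genes tested.

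ITGB2-AS1, opposite the leukocyte integrin gene ITGB2, had 59 and 53 normalized counts with SB505124, 8 and 21 at 3 days, and 8 and 3 at 7 days. Its log2 change was -2.02 and -3.25 (SE 0.499, adjusted p = 0.01 and 0.00019). The 3-day call held in 11 of 15 alternative settings. It failed with low values kept in, without the trend, without the first SB505124 library and without the first 3-day library, and in the last 2 the change was -1.94 and -1.37 (adjusted p = 0.056 and 0.092). ITGB2 had 66 and 63, then 10 and 11, then 1 and 7. The pair shares 303 exon bases. Of the 5 leukocyte markers, LAPTM5 went from 400 and 285 to 2102 and 2169 at 7 days, opposite to ITGB2-AS1, and PTPRC, CD3E and CD14 were at 8 or fewer in every library. Their part in the result was not tested.

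Other members fell in steps. ATP6V0E2-AS1, opposite a gene for a proton pump subunit, had 111 and 112 normalized counts with SB505124, 51 and 39 at 3 days, and 22 and 13 at 7 days (log2 change -1.30 and -2.65, SE 0.295). FAM222A-AS1 had 100 and 128, then 38 and 37, then 19 and 24 (-1.57 and -2.35). FOXN3-AS1 had 78 and 49, then 32 and 27, then 9 and 11 (-1.05 and -2.52). All 3 also fell between 3 and 7 days, by 1.35, 0.78 and 1.47 on the log2 scale (adjusted p = 0.0052, 0.038 and 0.0056). That of FAM222A-AS1 failed with low values kept in and without any 1 of the 4 TGFβ libraries (largest adjusted p = 0.20), and that of ATP6V0E2-AS1 without the second 7-day library (0.056). The 3-day call of FOXN3-AS1 held in 11 of 15 alternative settings (largest adjusted p = 0.17). LINC00341 had 605 and 403, then 272 and 256, then 125 and 126, and NOP14-AS1 had 918 and 701, then 467 and 492, then 267 and 290 (log2 change at 7 days -1.97 and -1.52). VAC14-AS1 had 148 and 169, then 59 and 55, then 50 and 62, a log2 change of -1.46 and -1.49.

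Other members differed between 3 and 7 days of TGFβ without differing from SB505124 at 3 days. HAS2-AS1, opposite the hyaluronan synthase gene HAS2, had 31 and 32 normalized counts with SB505124, 37 and 16 at 3 days, and 99 and 109 at 7 days, a rise of 2.04 on the log2 scale between the times (SE 0.344, adjusted p = 0.0013). HAS2 had 99 and 175, then 143 and 153, then 522 and 554. ZMIZ1-AS1 had 21 and 26, then 19 and 19, then 41 and 60, and LINC00954 had 23 and 31, then 17 and 23, then 51 and 46 (rises of 1.34 and 1.25, adjusted p = 0.007 and 0.0091). LINC00707 had 45 and 35, then 49 and 45, then 11 and 21, CRYM-AS1 had 55 and 36, then 56 and 41, then 13 and 21, and LINC01094 had 98 and 78, then 101 and 111, then 39 and 61. These 3 fell by 1.56, 1.48 and 1.10 between the times (adjusted p = 0.0049, 0.0065 and 0.0065).

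A few members changed at 3 days and then moved back. Of the 14 members called at 3 days alone, 3 were then lower at 7 than at 3 days and 2 were higher. LINC00152, the widely expressed RNA CYTOR, had 1099 and 859 normalized counts with SB505124, 1859 and 1665 at 3 days, and 1223 and 1155 at 7 days (log2 change 0.86 at 3 days, -0.57 between the times, adjusted p = 0.00031 and 0.0056). FRMD6-AS1 had 25 and 45, then 106 and 101, then 62 and 32 (1.59 and -1.20). VIM-AS1, opposite the vimentin gene, had 223 and 190, then 321 and 300, then 219 and 240 (0.59 and -0.44). The falls of FRMD6-AS1 and VIM-AS1 between the times passed the test in 11 and 8 of 16 alternative settings. DLG1-AS1 and PSMD5-AS1 were the members that were lower at 3 days and then higher.

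Among 23 tested LINC transcripts with a published name or role, 6 were higher and 3 lower at 3 days, 5 higher and 6 lower at 7 days, and 2 higher and 7 lower between the times. Of all genes tested, 29.0, 54.5 and 33.2% were called in these comparisons. The median log2 change was 0.24 at 3 days, 0.03 at 7 days and -0.26 between the times, beside -0.02, -0.00 and 0.02 over all genes tested. LINC00941 had 835 and 607 normalized counts with SB505124, 1279 and 1198 at 3 days, and 1011 and 1055 at 7 days (log2 change 0.80 and 0.54, adjusted p = 0.0012 and 0.0066). LINC00857 had 409 and 315, then 211 and 175, then 151 and 154, and LINC00665 had 397 and 445, then 276 and 317, then 211 and 195 (log2 change at 7 days -1.23 and -1.05). LINC00673 stood at 1688 and 1742, then 1768 and 1486, then 1765 and 1746, with a 7-day change of 0.03 that did not pass the test.

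For the antisense transcripts, the value of each was set beside that of the gene before the hyphen. The sense gene was in the table for 277 of 283 and was tested for 264. The median antisense transcript had 5.01% of the normalized counts of its sense gene (quartiles 1.26 and 26.8%), and in 31 pairs the antisense transcript was above the sense gene. By annotation, 170 pairs shared exon bases, 33 overlapped only in gene bodies, 54 did not overlap, 50 of them head to head, and 7 could not be placed. The library kit keeps no strand, so reads over shared exon bases cannot be told apart and the 170 are read beside the others.

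At 3 days against SB505124, 48 antisense transcripts of the 264 pairs were called, and in 27 of these pairs (56.2%) the sense gene was called as well, beside 31.4% of all the sense genes. In 26 pairs the directions were the same and in 1 opposite. At 7 days 102 antisense transcripts were called and in 66 of these pairs (64.7%) the sense gene was called, beside 56.8% of all the sense genes, 54 in the same direction and 12 in opposite directions. Between 7 and 3 days 49 antisense transcripts were called. In 25 of these pairs (51.0%) the sense gene was called, beside 37.9% of all the sense genes, 20 in the same direction and 5 in opposite directions.

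The log2 changes of antisense and sense had a Pearson r of 0.57 (3 days), 0.61 (7 days) and 0.41 (between the times) over the 264 pairs. These are descriptions across genes, which share libraries and, in part, exon bases. In the 54 pairs with no overlap r was 0.43, 0.39 and 0.06. In the 33 pairs that overlapped without shared exon bases it was 0.63, 0.70 and 0.47. Both genes were called in only 5, 11 and 5 of these 33 pairs, none of them in opposite directions. The gene bodies of the 33 pairs overlap, so without strand any reads of unspliced sense RNA over antisense exons cannot be told apart. Their part in these values was not tested.

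**Figure D4:**
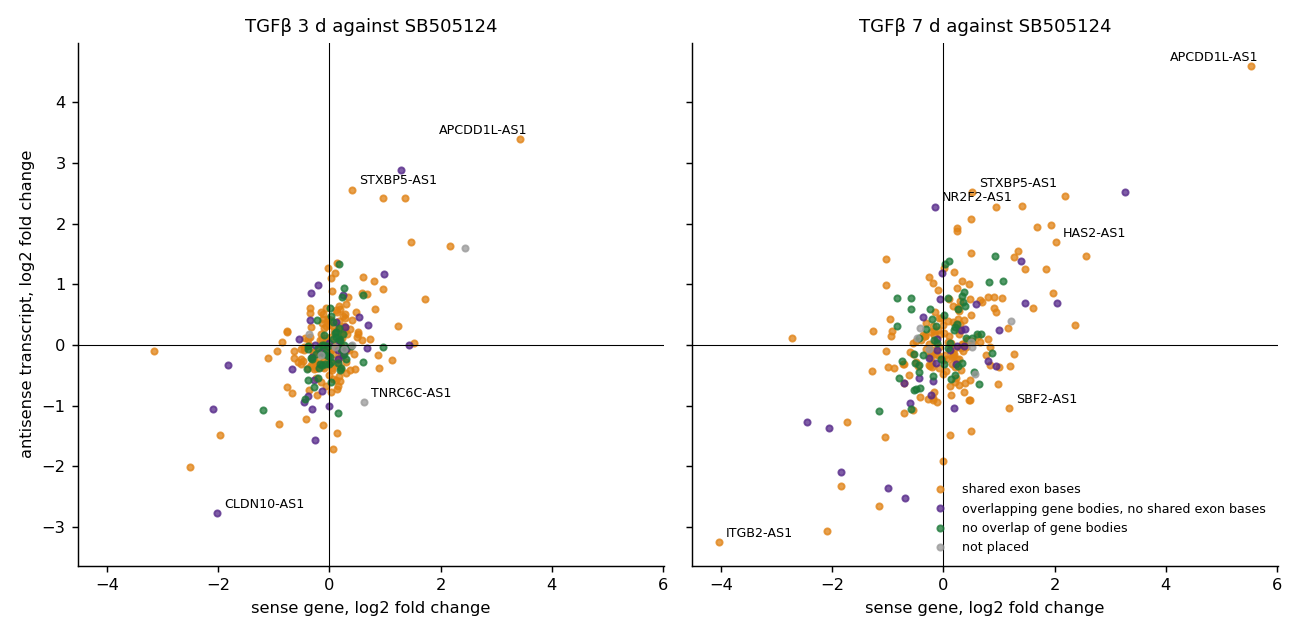
Log2 fold change of the sense gene (x axis) and of its antisense transcript (y axis) against SB505124 at 3 days (left) and 7 days (right); each point is 1 pair, colored by overlap in the GRCh37 annotation. Over 264 pairs r was 0.57 and 0.61; APCDD1L-AS1 lies at the upper right and CLDN10-AS1 (3 days) and ITGB2-AS1 (7 days) at the lower left.

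Of the 54 pairs called in the same direction at 7 days, GSN-AS1, P4HA2-AS1, FAM83A-AS1, RNF144A-AS1 and DLG5-AS1 with their sense genes were picked after their values were seen. GSN-AS1 faces GSN, which encodes the actin-severing protein gelsolin, and had 13 and 18 normalized counts with SB505124, 26 and 46 at 3 days, and 73 and 52 at 7 days (log2 change 1.13 and 1.94, adjusted p = 0.029 and 0.00054). GSN had 4457 and 5338, then 6709 and 8292, then 16728 and 14544. GSN-AS1 shares 5.86% of its exon bases with GSN, and over these bases strands cannot be told apart. GSN was far higher in every library, and the part of the GSN-AS1 count that came from GSN was not tested. P4HA2-AS1, opposite a collagen prolyl hydroxylase gene, had 79 and 68, then 169 and 138, then 190 and 213, while P4HA2 had 2301 and 2523, then 4184 and 4276, then 5940 and 5623. It shares 65.3% of its exon bases with P4HA2, over which strands cannot be told apart.

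FAM83A-AS1 shares 4.10% of its exon bases with FAM83A, over which strands cannot be told apart. It had 77 and 87 normalized counts with SB505124, 266 and 266 at 3 days, and 337 and 311 at 7 days (log2 change 1.69 and 1.97), beside 1.46 and 1.93 for FAM83A. RNF144A-AS1 shares no exon bases with RNF144A, a ubiquitin ligase gene. It had 147 and 147, then 325 and 336, then 384 and 388, a change of 1.16 and 1.39 beside 0.98 and 1.40 for the sense gene. DLG5-AS1 lies head to head with the polarity gene DLG5 with no overlap, and had 18 and 24, then 40 and 35, then 65 and 54, a change of 0.82 and 1.47 beside 0.60 and 0.93.

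Among the head-to-head pairs that fell together was RNASEH1-AS1, also picked after its values were seen. Its start lies 86 bases from that of RNASEH1, which encodes a ribonuclease for RNA paired with DNA. RNASEH1-AS1 had 773 and 646 normalized counts with SB505124, 566 and 569 at 3 days, and 349 and 328 at 7 days (7-day log2 change -1.06, adjusted p = 3.2e-05). RNASEH1 had 2481 and 2267, then 2253 and 2236, then 1603 and 1550 (-0.59).

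In 12 pairs the antisense transcript and its sense gene were called in opposite directions at 7 days against SB505124. Of the 12, 8 share exon bases, 3 do not overlap and 1 could not be placed. In 7 of them the antisense transcript fell while the sense gene rose. The number was 6 without the first SB505124 library and 7 and 5 without the first and second 7-day library. AFAP1-AS1, among the most abundant members, had 12267 and 12212 normalized counts with SB505124, 11115 and 10851 at 3 days, and 7892 and 7726 at 7 days (log2 change -0.16 and -0.65, adjusted p = 0.14 and 2.2e-05). AFAP1, which encodes an actin filament-associated protein, had 78 and 100, then 100 and 145, then 164 and 189 (7-day log2 change 0.99). The antisense value was above the sense value in every library, and 42.2% of the exon bases of AFAP1-AS1 are shared with AFAP1.

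SBF2-AS1 had 231 and 177 normalized counts with SB505124, 150 and 157 at 3 days, and 87 and 109 at 7 days, while SBF2, a regulator of membrane traffic, had 559 and 719, then 956 and 805, then 1409 and 1481 (7-day log2 changes -1.05 and 1.19). VPS9D1-AS1 had 462 and 472, then 234 and 316, then 179 and 168, while VPS9D1 had 180 and 240, then 191 and 238, then 312 and 277 (-1.42 and 0.50). KDM4A-AS1, DGUOK-AS1, MAN1B1-AS1 and ASH1L-AS1 fell by 0.90, 0.77, 0.64 and 0.58 (log2) at 7 days, and their sense genes rose by 0.47, 0.37, 0.65 and 0.47.

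In the other 5, of which 4 are described, the antisense transcript rose while the sense gene fell. BAIAP2-AS1 lies head to head with BAIAP2, a gene for an adaptor of membrane protrusions, with starts 241 bases apart and no overlap. It had 278 and 383 normalized counts with SB505124, 252 and 267 at 3 days, and 493 and 490 at 7 days (log2 change 0.59 ± 0.16 at 7 days, adjusted p = 0.0085), and BAIAP2 had 1340 and 1182, then 1054 and 1252, then 924 and 765 (-0.58). BOLA3-AS1 lies head to head with BOLA3, an iron-sulfur cluster factor, with starts 95 bases apart. It had 66 and 79, then 61 and 69, then 117 and 133 (0.78 ± 0.21 at 7 days, adjusted p = 0.0079), and BOLA3 had 1707 and 1302, then 1288 and 1229, then 1013 and 976 (-0.58). The windows of both transcripts, printed above, were the richest in CG of those shown. Without the first SB505124 library the change of BAIAP2-AS1 was 0.36 (adjusted p = 0.062), and without the second 7-day library that of BOLA3-AS1 was 0.69 (adjusted p = 0.077).

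LMO7-AS1, which reached the mean of 10 only through the 7-day group, had 7 and 8, then 9 and 9, then 26 and 18, beside a fall of 1.02 in LMO7. HNRNPU-AS1 rose by 0.28 beside a fall of 0.41 in the RNA-binding protein gene HNRNPU. The call of HNRNPU-AS1 held in 10 of 16 alternative settings, those of MAN1B1-AS1 and ASH1L-AS1 in 11 of 16, that of KDM4A-AS1 in 11 of 15 and that of LMO7-AS1 in 14 of 15. LMO7-AS1 lost its call without the first 7-day library (adjusted p = 0.099). At 3 days the only pair called in opposite directions was TNRC6C-AS1, which fell by 0.94 while TNRC6C, a gene of microRNA silencing, rose by 0.62.

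**Figure D5:**
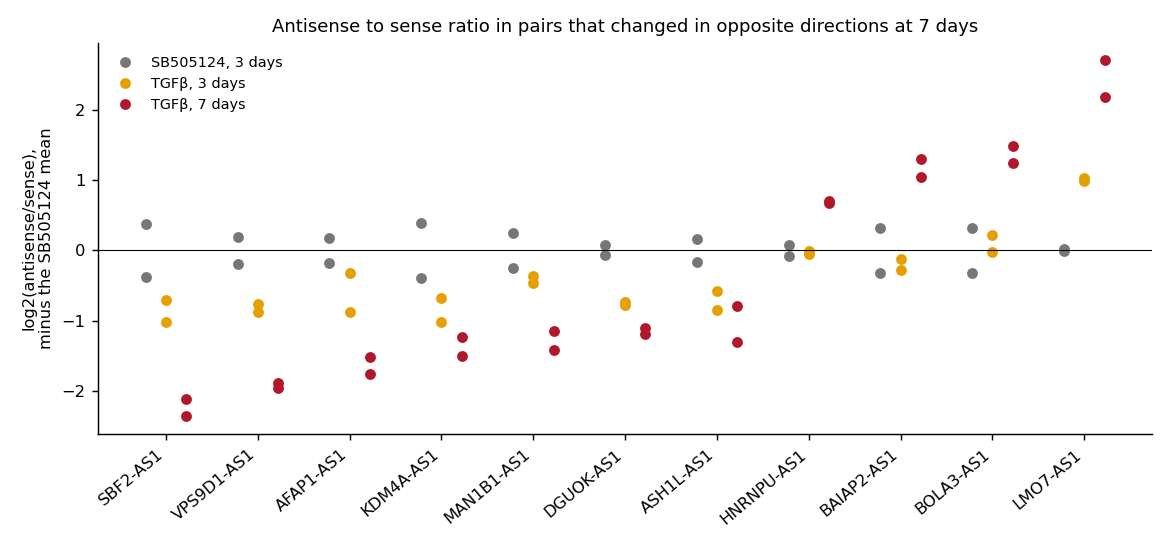
Log2 ratio of antisense to sense value in each library, minus the mean of the 2 SB505124 libraries (y axis), for 11 of the 12 pairs called in opposite directions at 7 days; each point is 1 library and color gives the group. From SBF2-AS1 to ASH1L-AS1 both 7-day points lie below both SB505124 points, and from HNRNPU-AS1 to LMO7-AS1 they lie above them.

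Of 10 tested antisense transcripts to genes of EMT, TGFβ signaling or matrix, 1 was higher and 1 lower at 3 days, and 3 were higher and 1 lower at 7 days, with a median log2 change of 0.10 at 7 days, where 29.0% of all genes tested were called at 3 days and 54.5% at 7 days. ZEB1-AS1, next to the gene of the EMT transcription factor ZEB1, had 289 and 248 normalized counts with SB505124, 207 and 204 at 3 days, and 214 and 207 at 7 days. All TGFβ values were below both SB505124 values, but the log2 changes of -0.38 and -0.35 did not pass the test (adjusted p = 0.083 and 0.074). ZEB1 had 2702 and 2567, then 5073 and 4770, then 5898 and 6223, a rise of 0.90 and 1.20. NR2F2-AS1 had 4 and 8, then 15 and 10, then 30 and 33 (7-day log2 change 2.27, adjusted p = 0.00072), and reached the mean of 10 only through the TGFβ groups. The nuclear receptor gene NR2F2 had 1961 and 1766, then 1662 and 1568, then 1625 and 1722 (-0.15, adjusted p = 0.2). CDKN2B-AS1, also called ANRIL, had 62 and 45, then 52 and 54, then 93 and 80 (0.70 at 7 days, adjusted p = 0.028). This call was lost without the second SB505124 library and without either 7-day library (largest adjusted p = 0.16). The cell cycle inhibitor gene CDKN2B had 325 and 295, then 825 and 841, then 1278 and 1294. LOXL1-AS1, PTPRG-AS1, NR2F1-AS1 and SNAI3-AS1 passed no test.

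Of 22 tested antisense transcripts to proliferation, repair or housekeeping genes, 3 were higher and 2 lower at 3 days, and 6 were higher and 6 lower at 7 days, with a 7-day median log2 change of -0.12. Of all genes tested, 29.0% were called at 3 days and 54.5% at 7 days. TMPO-AS1 had 554 and 390 normalized counts with SB505124, 431 and 429 at 3 days, and 312 and 290 at 7 days (7-day log2 change -0.63, adjusted p = 0.0067). HIF1A-AS1 had 43 and 25, then 20 and 9, then 7 and 9 (-1.92, adjusted p = 0.0033), while HIF1A, the hypoxia factor gene, had 20967 and 21656, then 16828 and 15100, then 20279 and 22024 (-0.01). ARHGAP5-AS1 rose from 259 and 281 to 415 and 448 at 3 days and stood at 434 and 498 at 7 days (log2 change 0.67 and 0.78). NNT-AS1, MCM3AP-AS1 and CKMT2-AS1 passed no test, with 7-day changes of -0.16, 0.22 and -0.08.

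LINC transcripts were set beside their nearest protein-coding gene where it was tested. With start sites within 10 kb there were 23 such pairs, and 4 were called in the same direction at 3 days and 4 at 7 days, and none between the times, with none in opposite directions. They were LINC00261 with FOXA2, LINC00862 with ZNF281, LINC00857 with ANXA11, and LINC00936 with ATP2B1. LINC00936 starts 407 bases from the start of ATP2B1 and overlaps a protein-coding gene on the opposite strand, where strands cannot be told apart. Over 10 kb apart there were 72 pairs, of which 5 were called in the same direction and 0 in opposite directions at 3 days, 15 and 10 at 7 days, and 9 and 3 between the times. Single genes were called in 29.0, 54.5 and 33.2% of all genes tested in these comparisons. Several LINC transcripts have the same nearest gene, as LINC00313 and LINC00319 do, so the pairs are not independent.

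Of the members now annotated as protein-coding, 5 are named here after their values were seen. LINC00998 (SMIM30) had 1631 and 1311 normalized counts with SB505124, 1957 and 1821 at 3 days, and 1946 and 2225 at 7 days (7-day log2 change 0.51, adjusted p = 0.0035). At 7 days NCBP2-AS2 fell by 0.56, TOPORS-AS1 fell by 0.68 and LINC00094 rose by 0.33 (log2). LINC00116, the mitoregulin transcript, stood at 228 and 252, then 219 and 229, then 215 and 201, a 7-day change of -0.20 that did not pass the test (adjusted p = 0.27).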

How the data were processed

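RNA of H2087-LCC cells was sequenced from TruSeq v2 libraries, which keep no strand. Reads were checked with FastQC 0.11.5 and aligned to hg19 with STAR. By the paper's methods, uniquely mapped reads were then assigned to genes with HTSeq 0.6.1p1 at its default settings. The part of these settings in counts over shared exon bases was not tested. The submitters' processing notes name DESeq2 3.4. The authors deposited 1 table of counts per gene normalized to library size and rounded to whole numbers, which is recorded here as a score because a count model needs unscaled counts. The release of the gene annotation was not given in the sources used here.

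Values were tested as log2(value + 1) with limma 3.58.1 (R 4.3.3; group as the only term, empirical Bayes with a trend) on 14395 genes with a mean of at least 10 over the 6 libraries, with Benjamini-Hochberg adjustment over all of them and a threshold of 0.05. A fold change on this scale understates the change of low genes. The script was tested on simulated data. An exact permutation test of 2 libraries against 2 cannot go below 0.333 and was not used.

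The members, gene lists and tests were chosen with earlier results of these data known. Named were, in each comparison, the 8 largest rises and 8 largest falls past the threshold among members averaging 30 or more, the 5 highest members, the tested members of fixed lists, and pairs called in opposite directions. Positions are from GENCODE v44 on GRCh37 and promoter windows from RefSeq on GRCh38.p14; 16 members were not found and 4 had been merged with another row of the table. Library numbers did not pair the samples. Alternatives were the pseudocount, the filter on low values, library scaling, the trend, the libraries in the fit, a replicate block and leaving out each library. A pair that the rule would name is not reported here.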

Additional observations from a re-analysis of the deposited data

How the results depend on the processing

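With 2 libraries a group, counts of calls moved more than directions: of 143 results of named members past the threshold, 74 stayed past it under every alternative and 0 reversed. The calls of APCDD1L-AS1 were among the 74. Those lost most often were LINC00607 at 3 days, which passed in 3 of 15 alternatives, LINC00942 between the times (7 of 16) and WDFY3-AS2 at 3 days (7 of 16). The most were lost without the filter on low values (43) and without the second 7-day library (41). With all genes above 0 tested, 53 members were called at 3 days in place of 80 and 45 in place of 86 between 7 and 3 days, and with a mean of at least 50, 107 at 7 days against SB505124 and 54 between the times. Requiring a change over 2-fold left 48, 86 and 38.

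Leaving out each library in turn gave 47 to 77 members at 3 days, 112 to 165 at 7 days and 29 to 108 between the times. A group left with 1 library was assumed to vary like the others. The counts moved by over 1.5 times without TGFβ 3 d library 1 (47 at 3 days, 38 between the times), without TGFβ 3 d library 2 (50 between the times), and without 7-day library 1 (114 at 7 days, 39 between the times) or library 2 (112 and 29). For pairs in the same direction the ranges were 16 to 22, 36 to 52 and 6 to 25, and for pairs in opposite directions 1 to 2, 5 to 14 and 1 to 9. Pairs in the same direction fell to 16 at 3 days without TGFβ 3 d library 1, and between the times to 8 and 11 without the first and second 3-day library and to 7 and 6 without the first and second 7-day library. Pairs in opposite directions at 7 days fell to 6 without SB505124 library 1 and to 7 and 5 without the 7-day libraries. At 3 days they were 2 without TGFβ 3 d library 2. Between the times they were 8 and 9 without the SB505124 libraries, 1 and 2 without the first and second 3-day library, and 1 without either 7-day library.

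Pairs with no shared exon bases gave 8, 21 and 7 in the same direction and 0, 3 and 1 in opposite directions. Pairs with both means of at least 50 gave 34 at 7 days and 11 between the times in the same direction. With equal library totals 2 pairs were called in opposite directions at 3 days. The cause of these shifts was not tested, beyond the smaller number of genes or libraries in each.

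Samples with the same library number did not all deviate together: r over 11389 genes was 0.21 for the SB505124 and 3-day libraries, -0.13 for the SB505124 and 7-day libraries and -0.65 for the 3-day and 7-day libraries. A replicate block on the numbers gave 79, 163 and 84 members, 25, 51 and 20 pairs in the same direction and 1, 11 and 4 in opposite directions. Because of the negative correlation a crossed pairing of the 7-day libraries was added after seeing the data, and gave 89, 177 and 96 members.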

Other observations

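Beside the LINC and antisense transcripts, 44 other named long noncoding RNAs were tested. Against SB505124, 8 were higher and 10 lower at 3 days, and 13 were higher and 22 lower at 7 days, where 29.0 and 54.5% of all genes tested were called, with a median log2 change of -0.14 and -0.36, beside -0.02 and -0.00 over all genes tested. MIAT, MALAT1, NEAT1 and HOTAIR were picked from this list after their values were seen, and their 7-day values lay above those with SB505124. MIAT had 22 and 46 normalized counts with SB505124, 124 and 145 at 3 days of TGFβ, and 1044 and 1138 at 7 days, a log2 change of 5.05 at 7 days in limma (adjusted p = 3.7e-08). The nuclear RNA MALAT1 had 13494 and 10424, then 25005 and 21014, then 36634 and 36061. NEAT1, a gene of paraspeckle RNA, had 10410 and 10419, then 13828 and 12908, then 16583 and 17417, with its isoforms not told apart. HOTAIR had 20 and 34, then 41 and 35, then 88 and 93.

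GAS5, ZFAS1 and transcripts named SNHG, which host small nucleolar RNAs, were picked from this list after their values were seen. GAS5 had 13461 and 12458 normalized counts with SB505124, 10335 and 9563 at 3 days, and 7673 and 8061 at 7 days (7-day log2 change -0.72, adjusted p = 2.1e-05). SNHG1 had 7092 and 6022, then 5459 and 4801, then 3288 and 3330, and ZFAS1 had 3740 and 3596, then 3298 and 3174, then 2026 and 2077 (7-day log2 change -0.98 and -0.84, adjusted p = 8.1e-06 and 7.5e-06). SNHG7 and SNHG15 fell by 1.58 and 1.30 on the log2 scale at 7 days. SNHG11 and SNHG20 did not pass the test, with changes of -0.33 and -0.39. LRRC75A-AS1, a host transcript that carries an antisense name, fell as well.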
